A study of Mus musculus with 10 samples.

Results

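The 42 genes described here encode the nuclear subunits of respiratory complexes II, III and IV, cytochrome c, and complex V (ATP synthase) of the inner mitochondrial membrane. They were taken from a list of gene names, with 4 genes for complex II, 9 for complex III, 1 for cytochrome c, 11 for complex IV and 17 for complex V, out of 22180 genes with a value of their own on the array. Of the 42 genes, 40 were measured, 2 of them under newer names (Atp5f1 as Atp5pb and Usmg5 as Atp5md). Uqcr10 and Cox6c were represented only by transcript clusters that the annotation assigns to several genes, so they have no value here. Probes are summarised into transcript clusters, and each gene was read from its brightest cluster. Atp5j2 lay below the level filter used for the tests, which left 39 genes to test.

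RNA from livers of 4-week-old male mice was measured on Affymetrix Mouse Gene 2.0 ST arrays, 10 arrays in all. The study asked what remains different in the liver after a temporary loss of Sod2, the mitochondrial manganese superoxide dismutase, during early development. The genotypes were Rosa26-rtTA + SOD2 shRNA 1 (3 livers), Rosa26-rtTA + SOD2 shRNA 2 (3 livers) and Rosa26-rtTA alone (4 littermate livers, called controls). All 3 groups carried rtTA, a doxycycline-dependent transactivator expressed from the broadly active Rosa26 locus, and the growth protocol gives the same chow for every sample, with doxycycline at 625 mg/kg fed to the pregnant dams, so that the hairpin was on from embryonic day 0 to 12.5. The 6 hairpin livers are called adapted, as in the submitters' title. The strain is not named. The series text places 3 controls in the shRNA 2 cohort and 1 in the shRNA 1 cohort but does not name them. Cohort and hairpin therefore cannot be told apart. Since the labels do not state that every liver is from a different animal, the p-values here reflect only how far these samples vary, which may be technical.

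Complex II (succinate dehydrogenase) passes electrons from succinate to ubiquinone, complex III passes them from ubiquinol to cytochrome c, and complex IV (cytochrome c oxidase) passes them to oxygen. Complexes III and IV pump protons, and ATP synthase lets the protons back through a rotating ring of c subunits while its F1 head makes ATP. All subunits of complex II and most of the others are encoded in the nucleus. Electrons that escape from the chain, complexes I and III above all, form superoxide, which Sod2 converts to hydrogen peroxide in the matrix.

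Array medians ranged over log2 4.06 to 4.17, and the correlation between 2 arrays over all clusters was 0.979 to 0.987. With 10 arrays, their number sets the precision. Sod2 itself lay between 10.24 and 10.49 in all 10 livers, with an adapted minus control difference of -0.012 on the log2 scale (standard error 0.076, limma adjusted p = 0.98). Hepatocyte markers identified the tissue. The mean of 8 genes per array was 12.55 to 12.62 in shRNA 1 livers, 12.48 to 12.51 in shRNA 2 livers and 12.53 to 12.54 in controls. For these means shRNA 1 livers lay above all controls and shRNA 2 livers below them, which was not tested. Gene by gene, shRNA 1 minus control had a median of 0.018, with 5 positive and 3 negative, and the largest was 0.54 for Tat. For shRNA 2 minus control the median was -0.0070, with 3 positive and 5 negative, and Tat differed by -0.018. The mean thus depends much on Tat and is no measure of hepatocyte content. The means of 5 skeletal muscle markers, a tissue rich in the same complexes, were 4.26 to 5.24 in adapted livers and 4.43 to 5.46 in controls, and those of 6 macrophage markers were 8.27 to 8.63 in adapted livers and 8.16 to 8.54 in controls. Subunit forms of other tissues (Cox4i2, Cox6a2, Cox6b2, Cox7a1, Cox7b2, Cox8b, Cox8c and Cyct) averaged 3.46 to 3.85 in adapted livers and 3.64 to 3.74 in controls, with 4 of 8 above the level filter.

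None of the 39 tested subunit genes passed an adjusted p of 0.05 between adapted and control livers (limma, two-sided, Benjamini-Hochberg over the 13308 genes above a level filter at log2 3.98), where 0.00751% of all genes, 1 gene, did. The gene with the largest difference and the smallest p was Atp5g1, encoding an ATP synthase c ring subunit, at 0.756 of the control level. Unadjusted p-values under 0.05 were found for 2 higher subunit genes, Uqcrfs1 and Cyc1 of complex III, which is 5.13% of the 39 against 4.86% of all genes, and for 1 lower gene, Atp5g1, which is 2.56% against 3.51%. These shares are near the background. All 6 adapted arrays lay above all 4 controls for 1 subunit gene, Atp5b, which is 2.56% against 1.04% of all genes, and below all controls for 1, again Atp5g1, which is 2.56% against 0.842%.

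The differences were small in both directions. Adapted minus control had a median of 0.053 on the log2 scale over the 39 genes, with 28 positive and 11 negative, against a median of 0.0058 over all 13308 genes with 6922 positive and 6386 negative. They ran from -0.40 for Atp5g1 to 0.25 for Cyc1. The 95% interval of the difference, not adjusted for the number of genes, stayed within 0.5 either side of 0 for 37 of the 39 genes, the exceptions being Atp5g1 and Cox7b. Over all genes this was so for 11731 of 13308. The median SD among arrays of a group was 0.103 for the subunit genes and 0.161 for all genes tested. In whole liver tissue, fewer cells of a type and less RNA per cell cannot be told apart.

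**Figure D1:**
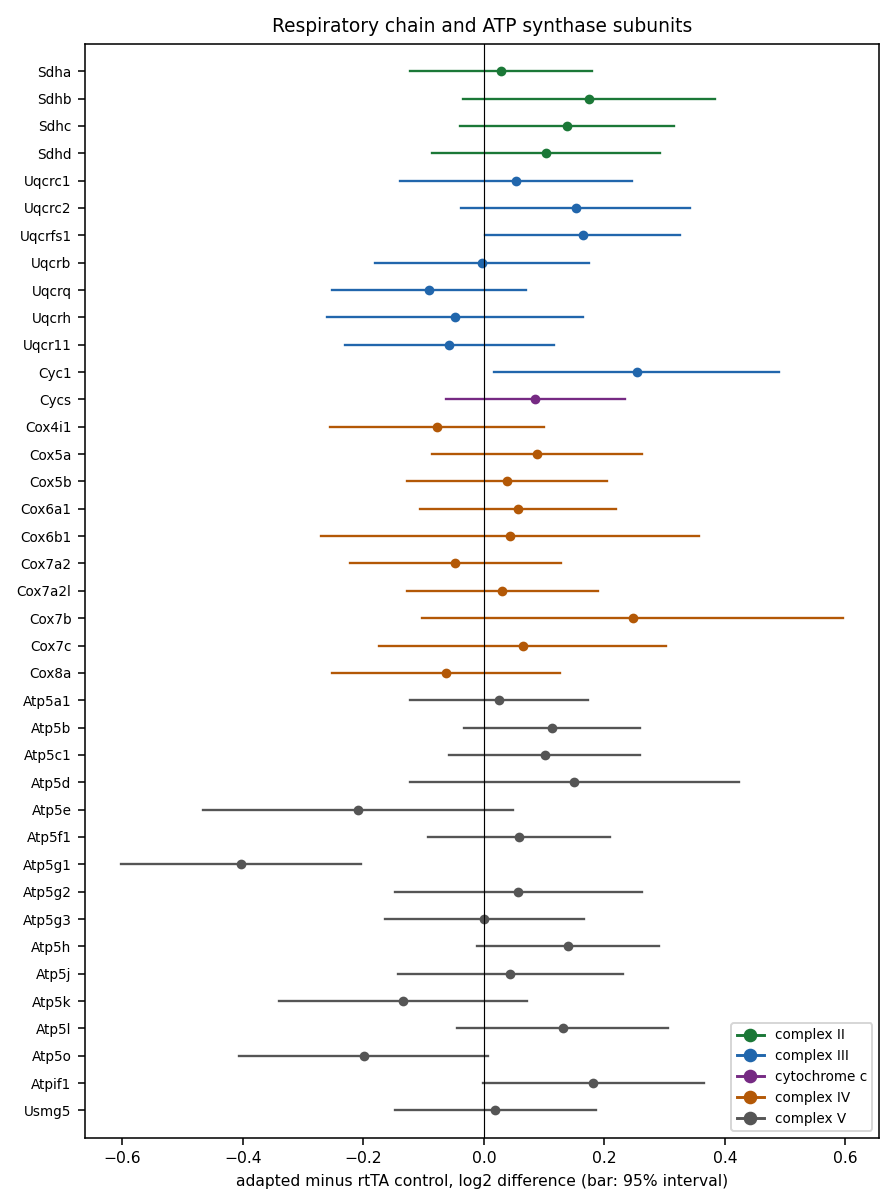
Adapted minus control log2 difference (horizontal axis) of the 39 tested subunit genes, coloured by complex, with points for the estimate and bars for the 95% interval from limma. Atp5g1 at -0.40 lies apart on the left, and the intervals of all other genes span 0 except those of Cyc1 and Uqcrfs1.

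The c ring of ATP synthase is built from one mature protein that 3 genes, Atp5g1, Atp5g2 and Atp5g3, encode with different import sequences. Atp5g1 was at log2 5.33, 5.41 and 5.44 in shRNA 1 livers and 5.25, 5.19 and 5.40 in shRNA 2 livers, against 5.83, 5.58, 5.94 and 5.61 in controls. Every hairpin liver was below every control, and the highest of the 6 (5.44) was close to the lowest control (5.58). The mean was 5.34 ± 0.098 (SD, n = 6) in adapted livers and 5.74 ± 0.18 (SD, n = 4) in controls. This signal was low beside most other subunit genes. As a rough guide, Acta1, the brightest of the 5 skeletal muscle markers, averaged 5.51 in adapted livers and 5.59 in controls. Acta1 is a loose guide, since single arrays ran from 5.09 to 6.89 and its mean was above that of 61.9% of all genes. How much of so low a signal of Atp5g1 comes from its own transcript was not tested. The difference of -0.40 had a standard error of 0.091, a 95% interval of -0.60 to -0.20 and an unadjusted p of 0.000865 in limma, rank 42 of all genes, and its adjusted p was 0.264. An exact two-sided permutation test over all 210 assignments of the arrays gave p = 0.0048, the smallest it can give, with 0.495 after adjustment over all genes. Atp5g1 differed by -0.35 in shRNA 1 livers (adjusted p = 0.424) and by -0.46 in shRNA 2 livers (adjusted p = 0.435), 2 comparisons that share the controls.

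Neither of the other c ring genes showed a difference of that size. Atp5g2 was at 10.96, 10.65 and 10.98 in shRNA 1 livers and 11.00, 10.81 and 11.05 in shRNA 2 livers, against 10.99, 10.88, 10.77 and 10.76 in controls, a difference of 0.057 (95% interval -0.15 to 0.26, adjusted p = 0.915). Atp5g3 was at 8.97, 8.82 and 8.70 in shRNA 1 livers and 8.80, 8.76 and 8.85 in shRNA 2 livers, against 8.75, 8.81, 8.82 and 8.88 in controls, a difference of 0.0004 (95% interval -0.16 to 0.17, adjusted p = 0.998). The groups overlapped for both genes. The difference of one c ring gene was not tested against that of another, and the amounts of RNA of different genes cannot be compared on these probes.

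The sequences just upstream of the 3 c ring genes, and of Cycs for comparison, are shown because these promoters hold different short motifs although the genes of the ring share a product. They are the 120 bases before the start in RefSeq (build GRCm38.p6), 5′ to 3′ on the gene's strand, which is the minus strand for all 4. Capitals mark exact matches, on either strand, to CCAAT, to the NRF-1 core GCGCATGCG and to the nuclear receptor site AAGGTCA.
Atp5g1, chr11:96075632-96075751: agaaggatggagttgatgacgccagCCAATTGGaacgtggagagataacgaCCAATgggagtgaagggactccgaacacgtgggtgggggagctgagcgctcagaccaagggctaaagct
Atp5g2, chr15:102671048-102671167: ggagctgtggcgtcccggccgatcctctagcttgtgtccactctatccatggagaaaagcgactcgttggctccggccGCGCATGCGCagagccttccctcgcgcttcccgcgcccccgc
Atp5g3, chr2:73911327-73911446: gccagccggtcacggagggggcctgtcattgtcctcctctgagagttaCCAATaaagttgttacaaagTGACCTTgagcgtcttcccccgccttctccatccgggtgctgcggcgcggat
Cycs, chr6:50566570-50566689: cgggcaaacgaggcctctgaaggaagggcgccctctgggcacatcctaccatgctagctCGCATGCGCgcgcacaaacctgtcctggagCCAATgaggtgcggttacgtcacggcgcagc

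The Atp5g1 stretch held 3 CCAAT matches, of which 2 overlap on opposite strands in the first run of capitals, and no match to the other motifs shown. The Atp5g2 stretch held 2 overlapping NRF-1 core matches on opposite strands and no CCAAT. The Atp5g3 stretch held 1 CCAAT match and 1 nuclear receptor site, and the Cycs stretch 1 NRF-1 core match and 1 CCAAT match. A match is a run of letters and not a measured binding site.

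**Figure D2:**
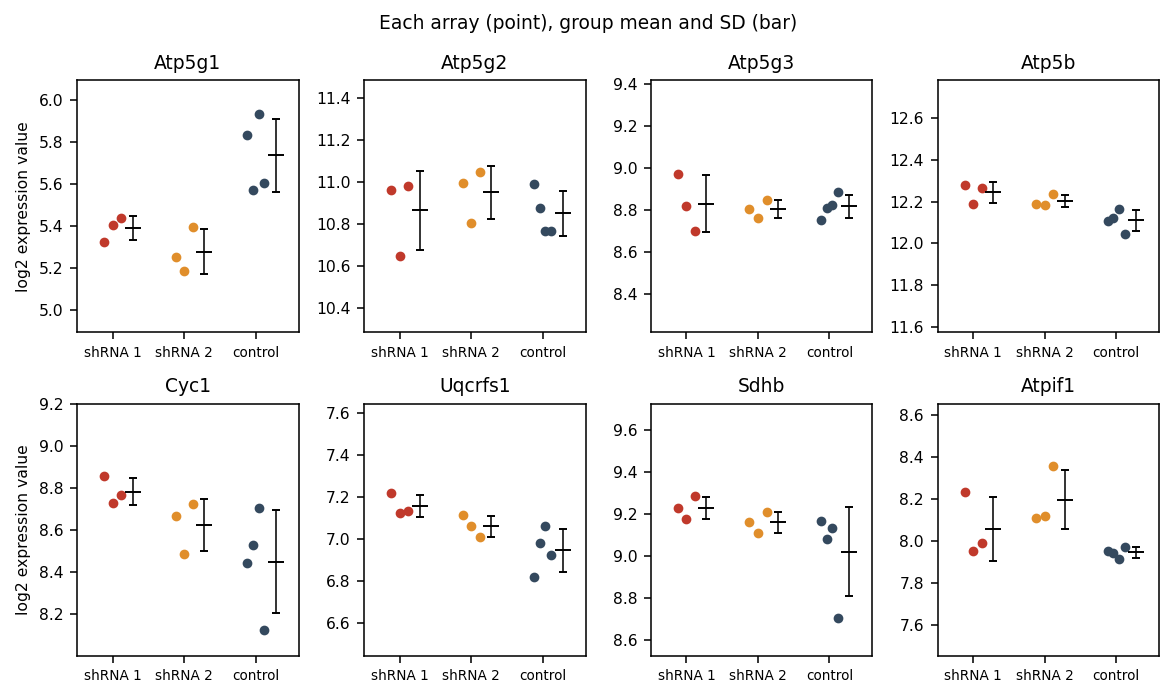
Log2 expression value (vertical axis, 1.2 log2 units in every panel) of 8 subunit genes in each array, with shRNA 1 and shRNA 2 livers left of controls. Points are arrays and bars the group mean and SD; the 6 hairpin points of Atp5g1 lie below the 4 control points, those of Atp5b above them, and the other 6 genes overlap between groups.

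In the F1 head, 4 of the 5 genes had a positive difference and none passed the test. Atp5b, the catalytic beta subunit, was at 12.28, 12.19 and 12.26 in shRNA 1 livers and 12.19, 12.18 and 12.23 in shRNA 2 livers, against 12.11, 12.12, 12.17 and 12.04 in controls. All 6 hairpin livers were higher than all 4 controls, by a small margin. The difference of 0.11 (standard error 0.067) had an exact permutation p of 0.0048 (0.495 adjusted over all genes) and a limma adjusted p of 0.689. The exact p was the smallest possible because no other assignment of the arrays gave so large a difference, and it does not measure the margin. The gene's own spread was narrow, 0.043 (SD, n = 6) in adapted livers and 0.050 (SD, n = 4) in controls. Limma draws that spread towards the spread of all genes.

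Atp5a1, the alpha subunit, was at 11.94, 11.93 and 11.83 in shRNA 1 livers and 11.81, 11.89 and 11.79 in shRNA 2 livers, against 11.83, 11.81, 11.89 and 11.84 in controls. The groups overlapped and the difference was 0.025 (adjusted p = 0.958). Atp5c1, the rotating gamma subunit, differed by 0.10 (adjusted p = 0.757) and Atp5d, the delta subunit, by 0.15 (adjusted p = 0.797). The value of Atp5d ran from 0.074 without shRNA 1 array 1 to 0.23 without shRNA 1 array 2, and was 0.0925 without control 3 and 0.094 without control 4. Atp5e, the epsilon subunit of the central stalk, was the exception in the head at -0.21 (adjusted p = 0.668). Its control 3 was at 8.31, above the other controls at 7.63 to 7.86, and without it the difference was -0.071.

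The peripheral stalk holds the F1 head still against the turning ring. Atp5h differed by 0.14 (adjusted p = 0.619), Atp5f1 by 0.059 (adjusted p = 0.864) and Atp5j by 0.044 (adjusted p = 0.929). Atp5o, the oligomycin sensitivity protein that links the stalk to the head, was lower at -0.20 without passing the test (adjusted p = 0.616), with 3 of 6 adapted livers below all controls. Its control 3 was at 6.01, above the other controls at 5.56 to 5.73, and the difference was -0.11 without it. Small membrane subunits that help ATP synthase form dimers gave 0.13 for Atp5l, -0.13 for Atp5k (-0.064 without shRNA 2 array 2) and 0.019 for Usmg5. Atp5j2, which was below the level filter at 3.75 in adapted livers and 3.75 in controls, differed by -0.0034 in a fit without that filter (limma adjusted p = 0.997).

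Atpif1 encodes the inhibitor that stops ATP synthase from running backwards. It was at 8.23, 7.95 and 7.99 in shRNA 1 livers and 8.11, 8.12 and 8.36 in shRNA 2 livers, against 7.96, 7.95, 7.91 and 7.97 in controls. The 3 shRNA 2 livers were all above the controls, and 2 of the 3 shRNA 1 livers were. The difference was 0.18 over all adapted livers (adjusted p = 0.601), 0.25 for shRNA 2 (adjusted p = 0.629) and 0.11 for shRNA 1 (adjusted p = 0.852), and the difference between hairpins of -0.14 had an adjusted p of 0.925. Over the 16 tested complex V genes the median difference was 0.0505, with 12 positive and 4 negative.

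Complex II had 4 of 4 differences above 0, with a median of 0.12 against 0.0058 over all genes tested, and none passed the test. Sdhb carries the iron-sulfur clusters that pass electrons to ubiquinone. It was at 9.23, 9.18 and 9.29 in shRNA 1 livers and 9.17, 9.11 and 9.21 in shRNA 2 livers, against 9.17, 9.08, 9.13 and 8.71 in controls. Control 4 was the low value, and 4 of 6 adapted livers were above all controls. The difference was 0.17 (standard error 0.096, adjusted p = 0.656), and 0.070 without control 4.

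Sdhc and Sdhd encode the membrane anchors where ubiquinone binds. Sdhc was at 9.41, 9.47 and 9.72 in shRNA 1 livers and 9.65, 9.51 and 9.50 in shRNA 2 livers, against 9.36, 9.43, 9.47 and 9.37 in controls, a difference of 0.14 (adjusted p = 0.688) and of 0.092 without shRNA 1 array 3. Sdhd was at 9.88, 9.97 and 9.86 in shRNA 1 livers and 9.80, 9.88 and 9.70 in shRNA 2 livers, against 9.72, 9.87, 9.86 and 9.53 in controls, a difference of 0.10 (adjusted p = 0.799) and of 0.031 without control 4. Sdha, the flavoprotein that oxidises succinate, was at 11.06, 11.07 and 11.10 in shRNA 1 livers and 11.00, 11.11 and 10.95 in shRNA 2 livers, against 11.01, 11.02, 11.08 and 10.97 in controls. It differed by 0.028 (adjusted p = 0.949). The median of the complex was 0.0504 without control 4, which had the lowest value of the 4 controls for Sdha, Sdhb and Sdhd.

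In complex III the subunits that carry electrons or form the core had positive differences and the small subunits had negative ones. Cyc1, the cytochrome c1 heme protein, was at 8.86, 8.73 and 8.77 in shRNA 1 livers and 8.67, 8.49 and 8.72 in shRNA 2 livers, against 8.44, 8.53, 8.71 and 8.12 in controls. Control 4 was again low, and 4 of 6 adapted livers, with all of shRNA 1 among them, were above all controls. The difference was 0.25 (standard error 0.11, unadjusted p = 0.0378 and adjusted p = 0.569 in limma), and 0.14 without control 4.

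Uqcrfs1 encodes the Rieske iron-sulfur protein, which moves electrons from ubiquinol to cytochrome c1. It was at 7.22, 7.12 and 7.14 in shRNA 1 livers and 7.11, 7.06 and 7.01 in shRNA 2 livers, against 6.82, 6.98, 7.06 and 6.92 in controls. The difference was 0.16 (standard error 0.074, limma adjusted p = 0.588), with 4 of 6 adapted livers above all controls. The core proteins gave 0.15 for Uqcrc2 (adjusted p = 0.676) and 0.053 for Uqcrc1 (adjusted p = 0.916).

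Of the small subunits without a redox centre, Uqcrq was at 6.95, 6.96 and 7.07 in shRNA 1 livers and 6.86, 6.79 and 6.999 in shRNA 2 livers, against 7.07, 7.01, 7.09 and 6.96 in controls. The groups overlapped, with a difference of -0.092 (adjusted p = 0.789). Uqcr11 gave -0.058, Uqcrh, the hinge protein, -0.048 and Uqcrb -0.0033, so that 0 of 4 were positive. The signs of Uqcrb and Uqcrh changed when single arrays were left out. The median over the 8 tested complex III genes was 0.025, and -0.0057 without shRNA 2 array 3. Grouped by role, the catalytic, core and electron-carrying subunits of complexes II, III and V had 10 of 11 positive differences. Their median was 0.11. The group took in all 5 F1 genes, catalytic or not, among them Atp5e, the exception. This grouping was made with earlier results known, none of the 11 genes passed the test, and the 2 kinds of subunit were not tested against each other.

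Cycs, cytochrome c, carries electrons between complexes III and IV. It was at 10.98, 11.05 and 11.01 in shRNA 1 livers and 10.80, 10.85 and 10.89 in shRNA 2 livers, against 10.77, 10.84, 10.93 and 10.83 in controls. The shRNA 1 livers were above all controls, and the shRNA 2 livers lay among them. The difference was 0.17 for shRNA 1 (adjusted p = 0.659) and 0.0017 for shRNA 2 (adjusted p = 0.999), and the difference between hairpins was 0.17 (adjusted p = 0.861).

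Complex IV had 7 positive and 3 negative differences among its 10 tested genes, with a median of 0.041. Cox7b, a small subunit, was at 9.11, 9.23 and 9.54 in shRNA 1 livers and 9.17, 8.92 and 9.86 in shRNA 2 livers, against 8.97, 9.10, 9.20 and 8.97 in controls. It had the widest spread of the 39 genes within groups, an SD of 0.29. Its difference of 0.25 (standard error 0.16, 95% interval -0.10 to 0.60, adjusted p = 0.728) was 0.11 without shRNA 2 array 3, the liver at 9.86.

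Cox4i1, the common form of subunit 4 that binds ATP, was at 9.42, 9.31 and 9.38 in shRNA 1 livers and 9.52, 9.16 and 9.42 in shRNA 2 livers, against 9.44, 9.45, 9.48 and 9.42 in controls. Of the 6 adapted livers, 5 were below all controls and 1 was above them, with a difference of -0.078 (adjusted p = 0.847). The margin was very small for shRNA 1 array 1 (9.4192) and shRNA 2 array 3 (9.4176), against the lowest control at 9.4206. Cox5a was at 9.47, 9.43 and 9.64 in shRNA 1 livers and 9.52, 9.31 and 9.51 in shRNA 2 livers, against 9.34, 9.34, 9.49 and 9.39 in controls, a difference of 0.088 (adjusted p = 0.820). Cox7c was at 5.69, 5.71 and 5.58 in shRNA 1 livers and 5.25, 5.71 and 5.39 in shRNA 2 livers, against 5.77, 5.37, 5.39 and 5.42 in controls. Control 1 stood apart for Cox7c, and the difference was 0.064 (adjusted p = 0.918). The other 6 genes (Cox5b, Cox6a1, Cox6b1, Cox7a2, Cox8a and the supercomplex factor Cox7a2l) differed by -0.063 to 0.056, with adjusted p-values of 0.888 to 0.965. The median of complex IV was 0.0093 without shRNA 2 array 3 and 0.013 without control 4.

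**Figure D3:**
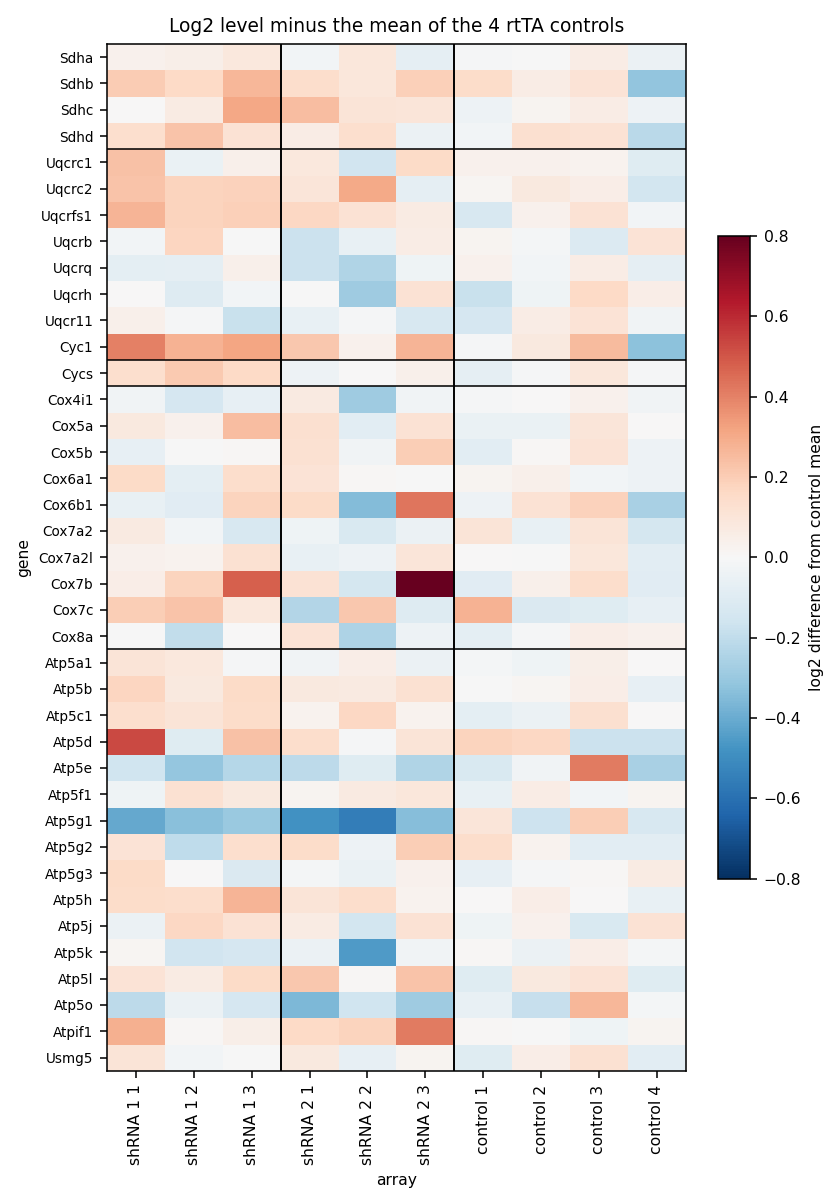
Log2 level of the 39 tested subunit genes (rows, ordered by complex) in each array minus the mean of the 4 controls, with shRNA 1, shRNA 2 and control arrays from left to right. The row of Atp5g1 is blue in all 6 hairpin columns, and control 4 is blue for Sdhb and Cyc1.

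The deviations of whole complexes varied between arrays of a group. For complex II the median deviation from the control mean was 0.085, 0.11 and 0.19 in shRNA 1 livers and 0.10, 0.098 and 0.026 in shRNA 2 livers, against -0.017, 0.039, 0.087 and -0.13 in controls. For all 39 genes it was 0.080, 0.027 and 0.086 in shRNA 1 livers and 0.071, -0.029 and 0.043 in shRNA 2 livers, against -0.015, 0.012, 0.062 and -0.048 in controls. The groups overlapped in both. After group means were removed, the 741 pairs of subunit genes had a median correlation of 0.17 over the 10 arrays, 64.0% of them above 0, against 0.016 for pairs of a subunit gene and another tested gene. The median was 0.35 within complex IV, 0.28 within complex II, 0.15 within complex III and 0.060 within complex V. The pairs share arrays and the spread of level between them, so these are descriptions.

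**Figure D4:**
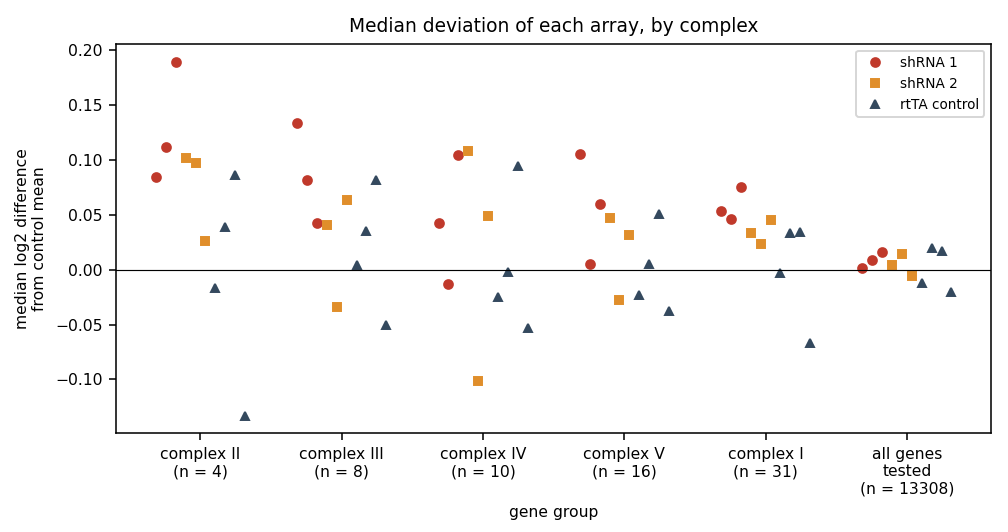
Median log2 difference from the control mean (vertical axis) of each array over the tested genes of complexes II, III, IV and V, complex I and all genes. Circles are shRNA 1, squares shRNA 2 and triangles control arrays; control 4 is lowest among controls in every group, and the groups overlap.

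The hairpins were also compared apart. For shRNA 1 livers against controls, 0 subunit genes passed the adjusted threshold in limma, and 0 of all genes, 0%, did. Without adjustment 3 were higher (Uqcrfs1, Cyc1 and Atp5h, 7.69% against 4.57% of all genes) and Atp5g1 was lower (2.56% against 3.32%). For shRNA 2 livers against controls, 0 subunit genes passed where 0.00751% of all genes did. Without adjustment 1 was higher (Atpif1, 2.56% against 4.14%) and 2 were lower (Atp5g1 and Atp5o, 5.13% against 3.46%).

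The median difference of the 39 genes was 0.061 for shRNA 1 and 0.029 for shRNA 2, against 0.0086 and 0.0039 over all genes. By complex, shRNA 1 and then shRNA 2 gave 0.14 and 0.095 for complex II, 0.063 and -0.013 for complex III, 0.035 and 0.0195 for complex IV, and 0.057 and 0.0375 for complex V. Both comparisons use the same 4 controls. Between the hairpins (shRNA 1 minus shRNA 2), 0 subunit genes passed where 0.015% of all genes did, and without adjustment 0 were higher and 0 lower where 3.32% and 2.7% of all genes were. The median was 0.0525, with 29 positive and 10 negative, against 0.0045 over all genes, with 6801 positive and 6507 negative. All 8 of 8 complex III genes were positive, with a median of 0.093 and a smallest limma adjusted p of 0.944. Subunit genes share the arrays, so these signs are not separate results.

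Genes that act with these complexes did not pass the adjusted test in any list. Nuclear subunits of complex I, the other entry of electrons to ubiquinone, had a median of 0.049 in adapted against control livers, with 22 of 31 positive, 0 called (past the adjusted threshold) and a smallest adjusted p of 0.601. Among them Ndufb3 differed by -0.17, Ndufa12 by 0.19 and Ndufa8 by 0.15. Assembly factors gave 0 called of 4 for complex II (median -0.018), 0 of 5 for complex III (-0.0063), 0 of 22 for complex IV (0.029) and 0 of 4 for complex V (0.065). Coa6, a copper-handling assembly factor of complex IV, averaged 7.83 ± 0.15 (SD, n = 6) in adapted livers and 7.49 ± 0.31 (SD, n = 4) in controls, a difference of 0.34 (limma adjusted p = 0.521). Bcs1l, which inserts the Rieske protein into complex III, differed by 0.21 (adjusted p = 0.743).

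Around the chain, 0 of 12 coenzyme Q synthesis genes, 0 of 8 genes of other enzymes that reduce ubiquinone and 0 of 7 ATP and phosphate exchange genes were called. Slc25a4, the adenine nucleotide carrier of heart and muscle, averaged 6.05 ± 0.16 (SD, n = 6) in adapted livers and 5.68 ± 0.14 (SD, n = 4) in controls, a difference of 0.37 (standard error 0.090, limma adjusted p = 0.297). Slc25a5, the carrier common in liver, differed by 0.13 (adjusted p = 0.651). Of 11 regulators of nuclear respiratory genes, 0 passed. Ppargc1a, the coactivator PGC-1alpha, averaged 7.17 ± 0.35 (SD, n = 6) in adapted livers and 6.58 ± 0.16 (SD, n = 4) in controls. The difference was 0.59 (limma adjusted p = 0.264), with 0.84 for shRNA 1 and 0.34 for shRNA 2. The smallest limma adjusted p among the 11 regulators was 0.0894 for shRNA 1 against control and 0.636 for shRNA 2. Nrf1, the factor that binds the NRF-1 motif, differed by -0.19 (adjusted p = 0.574). None of the 13 subunits encoded by mitochondrial DNA had a value here, so subunits of both genomes could not be set side by side.

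In RefSeq promoter windows of 300 bases (250 before to 50 after the start), which 34 of the 42 genes have, the NRF-1 core GCGCATGCG was found on either strand for 7 genes, 20.6% against 1.95% of 27025 genes. These were Atp5g2, Atp5k, Atp5l, Cox6a1, Cycs, Uqcr11 and Uqcrc1, whose adapted minus control differences ran from -0.13 to 0.13. The ETS core CCGGAAG was found for 13 genes, 38.2% against 9.93%, and the nuclear receptor site AAGGTCA for 6, 17.6% against 5.38%. The YY1 motif AAGATGGC was found for 3, 8.82% against 3.19%, CCAAT for 18, 52.9% against 41.1%, and the GC box GGGCGG for 14, 41.2% against 38.2%. These shares were not matched for base composition, and no motif was compared with the differences by a test.

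Several of these genes have processed copies elsewhere in the genome, and probes may not tell a gene from a copy. For 6 of the 40 measured genes (Atp5g2, Atp5h, Cox5b, Cox7b, Cycs and Uqcrb) the brightest cluster was numbered among clusters of genes on another chromosome or on several, where 98.9% of all clusters with one gene were numbered among genes of their own chromosome. Their values are therefore uncertain as measures of the named gene. The 7 genes with several clusters were Atp5d, Atp5e, Atp5g2, Atp5h, Cox5b, Cox7b and Cycs. Each had the same sign of adapted minus control difference in all of its clusters. Some Cycs clusters had the same mean level, 8.19, and the same difference, 0.091, so they may not count separately. The cluster among a gene's own neighbours was dimmer than the brightest one, at mean log2 4.02 against 9.21 for Cox7b and 4.45 against 9.78 for Cox5b. It was 5.39 against 11.04 for Atp5h and 9.745 against 10.88 for Atp5g2. The level filter lay at 3.98. Atp5h gave 0.14 in its brightest cluster and 0.096 in the one among its own neighbours. Cox7b gave 0.25 and 0.32, Atp5g2 0.057 and 0.11, and Cox5b 0.038 and 0.095. These averages can hide differences between hairpins. Over the alternative settings, Atp5h ranged from 0.145 to 0.353 for shRNA 1 against control. For shRNA 2 against control it ranged from -0.162 to 0.128, so its sign was not kept there. The values 0.353 and -0.162 belong to the Atp5h cluster among its own neighbours, where shRNA 1 minus shRNA 2 was 0.5155. In that cluster the hairpins had opposite signs. Atp5g1 has a single cluster, numbered among genes of its own chromosome.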

How the data were processed

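Total RNA from 10 livers was measured on one-colour whole-transcript arrays. The values deposited by the authors are log2 expression values per transcript cluster, made with Affymetrix Expression Console per the submitters' processing notes; no version, normalization method or build is given in the sources used here. They were used as deposited. Of 41345 clusters, 23521 had 1 gene symbol, 1814 several and 16010 none. Each gene was read from its single-symbol cluster with the highest mean. A level filter at the 40th percentile of gene means, log2 3.98, kept 13308 genes. This filter used all 10 arrays.

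One limma fit (3.58.1, R 4.3.3) with 3 group means gave 4 comparisons: the mean of both hairpin groups against control, each hairpin against control, and shRNA 1 against shRNA 2. Tests were two-sided, with Benjamini-Hochberg adjustment over all genes and a threshold of 0.05. The fit was tested on simulated data. Exact permutation tests ran over all 210 assignments of 6 and 4 arrays. Values in every array are given for the members of each complex with the largest moderated statistic (2 for adapted, 1 for each other comparison) and for subunits that define each complex; from other lists up to 3 genes were taken. The members, lists and rules were chosen with earlier results of these data known. Alternatives covered normalization, level filter, choice of cluster, variance model, array weights, a replicate block, 2 groups, and arrays left out. The own-chromosome cluster and the removal of 2 arrays were added after seeing the data. Promoters came from RefSeq (GRCm38.p6). Figures used Python 3.11.15 and matplotlib 3.10.9.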

Additional observations from a re-analysis of the deposited data

Results flagged for a closer look

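Among the controls, 44 sets of 4 values (the tested subunit genes and their summaries by complex) were searched for one value far from the rest by Dixon's gap test, and 2 were found, about the number that chance gives at 1 in 20. Uqcrc1, a core protein of complex III, was at log2 9.9669 in control 4, and the other 3 controls lay between 10.0923 and 10.1026. Cox7c, a small subunit of complex IV, was at 5.7687 in control 1, and the other 3 controls lay between 5.3734 and 5.4238.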

How the results depend on the processing

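No subunit gene passed the adjusted threshold under any of the 22 alternatives run for adapted against control, or the 20 run for each other comparison, which had no exact permutation and no fit with the hairpins as 1 group. The exact permutation could hardly call a gene, since its p cannot fall below 0.0048 and its smallest adjusted p over all genes was 0.495. Over the limma settings the smallest adjusted p of a subunit gene was 0.163, for Atp5g1 in adapted against control livers. There the Atp5g1 difference ranged from -0.48 to -0.34 and its adjusted p from 0.163 to 0.532. In the other comparisons the smallest was 0.278. Of 819 recomputed adapted minus control differences, 789 kept their sign, 31 genes kept it throughout, and 30 values of 8 genes changed sign. The cause of each change below was not tested.

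Counts over all genes moved. Adapted against control called 1 gene, and 0 with the 60th percentile filter, 6 with an intensity trend and robust prior, 0 with the hairpins as 1 group, 3 without control 4 and shRNA 2 array 3, 0 by exact permutation and 1 to 3 with single arrays left out. For shRNA 1 against control it was 0, and 1 after quantile normalization, 15 with the higher filter, 7 with the mean of clusters, 30 with the trend, 19 with array weights, 35 without those 2 arrays and 0 to 11 with single arrays left out. For shRNA 2 against control it was 1, and 0 with the higher filter and 1 to 3 with single arrays left out. Between hairpins it was 2, and 1 after quantile normalization, 4 after median centring, 1 with the higher filter, 4 with the replicate block, 7 with the trend, 6 with weights, 5 without the 2 arrays and 1 to 4 with single arrays left out.

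The 8 genes whose sign changed had reported differences of -0.048 to 0.053. Without the 2 arrays the differences were -0.012 for Uqcrc1, 0.0028 for Uqcrb, -0.0007 for Cox5b, -0.13 for Cox6b1, -0.023 for Cox7a2l and -0.010 for Usmg5. With array weights they were 0.0018 for Uqcrb, -0.0001 for Cox6b1, -0.0081 for Atp5g3 and -0.0014 for Usmg5. With the replicate block they were 0.032 for Uqcrb, -0.043 for Cox6b1 and -0.0082 for Usmg5. Median centring gave 0.028 for Uqcrb and quantile normalization -0.019 for Atp5g3. With single arrays left out, Uqcrb ran from -0.039 to 0.032, Uqcrh from -0.11 to 0.0085, Cox6b1 from -0.043 to 0.15, Atp5g3 from -0.035 to 0.033 and Usmg5 from -0.013 to 0.060.

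The replicate numbers showed no clear pairing of the samples. The deviations of the 9 same-numbered pairs correlated at -0.25 to 0.27, with 4 of 9 over 0.1. Differently numbered pairs from different groups correlated at -0.28 to 0.27. Whether the numbers follow a litter or a batch was not tested. Control 4 is alone in its block, so the replicate block drops it, and it gave a complex II median of 0.0504 in place of 0.12.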
